A study of Mus musculus with 18 samples.

Results

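The comparison described here set the hippocampus of N171-HD82Q mice against that of their wild-type littermates at 20 weeks of age. It comprised 6 of the 18 arrays of the series, those labelled hippocampus at 20 weeks, 3 transgenic and 3 wild type, and 19938 genes were measured on them. N171-HD82Q mice (strain PrP-htt-N171-82Q) are a widely used Huntington's disease model: the promoter of the mouse prion gene drives a truncated human huntingtin, the N-terminal end only, whose polyglutamine stretch is expanded. Wild-type littermates lack the transgene. Because that promoter is active in many neurons, the transgene is not restricted to the hippocampus, and the mice keep their own huntingtin gene. All animals of this set were females on a mixed DBA and C57BL/6J background. RNA was taken from single hippocampi and then combined in equal amounts from 3 to 4 animals per array, so that each array stands for a pool, and a p-value measures only the spread between pools. Expression was read on Affymetrix Mouse Gene 1.0 ST arrays and is given as log2 RMA values, on which a difference of 1 is a doubling or halving.

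The hippocampus passes excitatory signals from the granule neurons of the dentate gyrus to the pyramidal neurons of the CA fields, under the control of GABAergic interneurons. Each of these cell types has a set of marker genes, so that a whole-tissue array gives a coarse view of several cell types together. Neuronal firing induces immediate early genes such as Arc, and the granule neurons also make peptides such as enkephalin, whose precursor gene Penk responds to activity. Mutant huntingtin is known to interfere with transcription, and the best described result is the loss of receptor, peptide and signalling transcripts from striatal projection neurons.

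Transgenic pool 1 stood apart from its group. Its mean correlation with the other transgenic pools over all probe sets was 0.9733. Transgenic pools 2 and 3 correlated at 0.9953 with each other, and the wild-type pools had means of 0.9927 to 0.9945. Transgenic pool 1 correlated at 0.9773 to 0.9879 with the wild-type pools, above its 0.9730 and 0.9735 with transgenic pools 2 and 3. The interquartile range of the log2 values was 2.71 in transgenic pool 1, 3.11 and 3.15 in pools 2 and 3, and 2.89 to 2.92 in the wild-type pools. The displacement of the transgenic pools from the wild type depended on expression level, as seen when the genes were divided by mean level into 4 classes of equal size, class 1 being the dimmest. In class 3 the median difference from the wild-type mean was -0.142 in pool 1 against 0.165 and 0.195 in pools 2 and 3. In class 1 it was 0.0573 in pool 1 and -0.1 and -0.109 in the others.

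**Figure D1:**
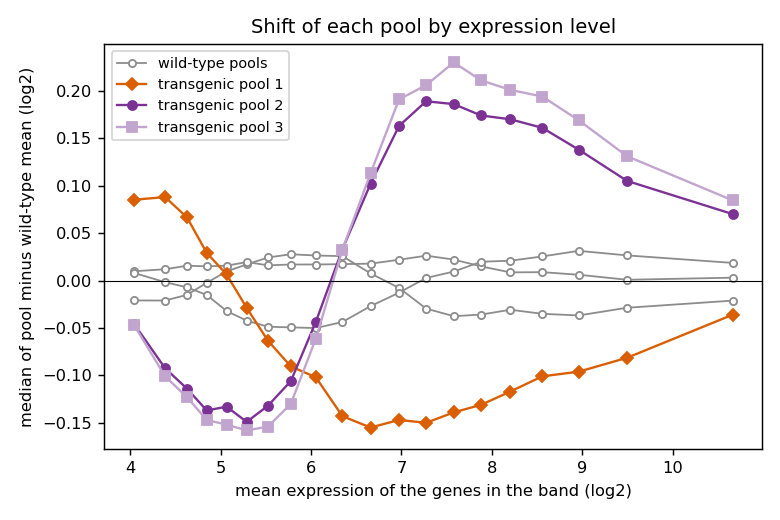
Median difference of each pool from the wild-type mean (vertical axis, log2) in 20 bands of genes ordered by mean expression (horizontal axis, log2). Each line is 1 pool: the wild-type pools stay near 0, transgenic pools 2 and 3 run together, and transgenic pool 1 lies opposite to them at the lowest levels and from a level of about 6.3 upwards.

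Each result is therefore given with and without transgenic pool 1. With all 6 pools and the deposited values, limma called no gene at an adjusted p below 0.05 (0.0% of genes), although 2830 genes had an unadjusted p below 0.05. The lowest adjusted p in that fit was 0.078. Without transgenic pool 1 the same test called 5698 genes, or 28.6%, of which 3488 (17.5%) were higher and 2210 (11.1%) lower in transgenic hippocampus. By level that split was uneven, with 1238 higher and 235 lower in class 4, the brightest, and 58 higher and 673 lower in class 1. Once the 6 arrays had been brought to 1 distribution by quantile normalisation, all 6 pools together called 212 genes, or 1.06%, of which 61 (0.306%) were higher and 151 (0.757%) lower. All 212 were also called without pool 1. In all 212 the 3 transgenic values lay beyond the 3 wild-type values on 1 side, as they did in 20.4% of all genes. Neither is a separate check, since both reuse arrays on which the 212 were called. After quantile normalisation the 5 pools without transgenic pool 1 called 2461 genes, 12.3%, of which 1258 (6.31%) were higher and 1203 (6.03%) lower. These counts rested on few pools: from the fit without pool 1, leaving out wild-type pool 2 as well gave 2884 calls, transgenic pool 2 gave 315 and transgenic pool 3 gave 0. From the 6 quantile-normalised pools, leaving out any pool other than transgenic pool 1 gave between 0 and 17 calls. Below, a gene is said to have risen or fallen where it was called without transgenic pool 1, and the stricter call with all 6 pools after quantile normalisation is named the 6-pool call. For gene lists the rescaled count, without pool 1 after quantile normalisation, is given too. Shares of all genes to set beside a list's counts are 17.5% risen and 11.1% fallen, 0.306% and 0.757% with the 6-pool call, and 6.31% higher and 6.03% lower in the rescaled count. These shares pool all levels. In class 3, 1694 of 4984 genes rose and 258 fell, and in class 4, 1238 of 4985 rose and 235 fell. Lists of bright genes therefore face another share at their own level, and list counts were not set against genes of matched level. Where adjusted p-values are given in pairs, the first is without pool 1 and the second is the 6-pool value. Fold changes and SEs (log2) are from the fit without pool 1.

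**Figure D2:**
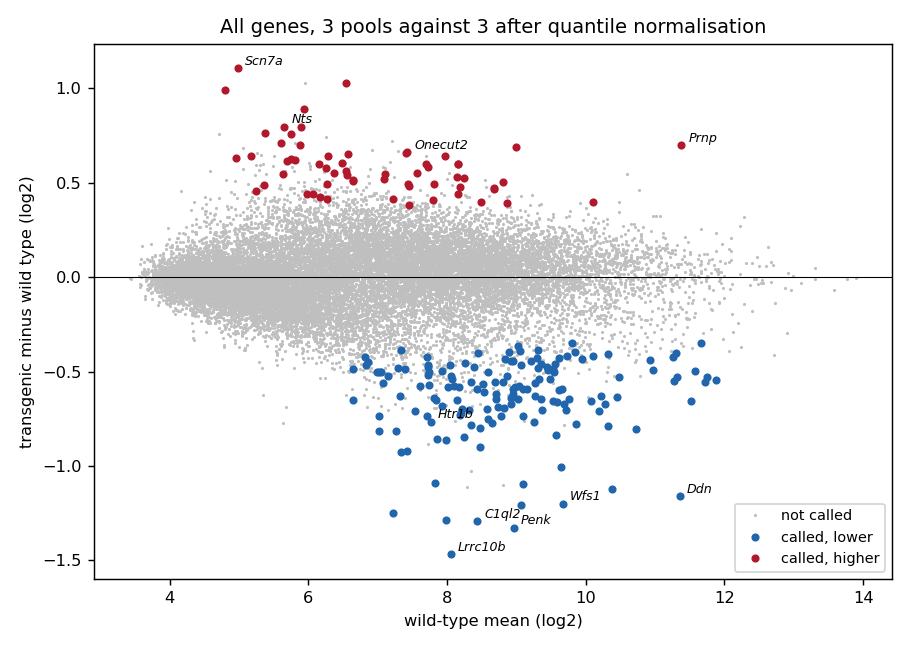
Transgenic minus wild-type difference (vertical axis, log2) of every gene against its wild-type mean (horizontal axis, log2), all 6 pools after quantile normalisation. Coloured points are the 61 higher and 151 lower genes of the 6-pool call. The lower genes lie mostly among well expressed genes, 98 of them in class 4 and 51 in class 3.

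The labels were checked against genes of known behaviour. Prnp, which encodes the prion protein and whose promoter drives the transgene, stood at 11.39, 11.42 and 11.32 in wild-type pools 1 to 3 and at 12.18, 12.02 and 12.10 in transgenic pools 1 to 3. All transgenic pools were high, including pool 1, and the rise was 1.61-fold (adjusted p 0.00453 and 0.0188). Whether the probes of Prnp also detect prion gene sequence carried by the transgene was not tested. Mouse Htt lay between 8.81 and 8.95 in all 6 pools, and its difference of 0.093 (SE 0.068) did not pass (adjusted p 0.309 and 0.987). Xist, the RNA that coats the inactive X chromosome of females, was at 10.98 to 11.22 in every pool, and the Y-linked genes Eif2s3y, Kdm5d and Uty were between 3.75 and 4.86, among the dimmest genes. Both groups thus matched the label female. The 150 bases upstream of the Prnp start are shown because this is the promoter region named in the strain (RefSeq, GRCm38.p6, chr2:131909778-131909927, plus strand). Capitals mark GC boxes (GGGCGG, on both strands), an AP-1 site (TGANTCA) and a CCAAT box (CCAAT, on both strands).
Prnp: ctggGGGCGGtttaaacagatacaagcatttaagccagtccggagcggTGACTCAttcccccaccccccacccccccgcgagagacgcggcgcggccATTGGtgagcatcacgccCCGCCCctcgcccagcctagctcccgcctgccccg

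The largest falls among genes called without pool 1 and not overlapping between groups included markers of granule and pyramidal neurons and the enkephalin precursor. Lrrc10b, a leucine-rich repeat gene, led them, from 8.47, 8.07 and 7.62 in wild type to 6.23, 6.93 and 6.75 in transgenic pools (2.33-fold, adjusted p 0.0084 and 0.0349). Penk, the enkephalin precursor, fell 2.22-fold (log2 difference -1.15, SE 0.12, adjusted p 0.00453 and 0.0188). Its wild-type pools read 9.21, 8.77 and 8.90 and its transgenic pools 7.41, 7.83 and 7.79, so that even the highest transgenic pool lay well under the lowest wild-type pool. Arc, an activity-induced gene of dendrites that acts in AMPA receptor trafficking, went from 9.49, 8.92 and 8.79 to 7.78, 8.06 and 7.87, a 2.15-fold fall (adjusted p 0.0082 and 0.0306). Wfs1, which encodes wolframin of the endoplasmic reticulum and marks CA1 pyramidal neurons, had closely spaced wild-type values of 9.69, 9.64 and 9.69. Its transgenic pools stood at 8.06, 8.76 and 8.70, with pool 1 the lowest (1.93-fold, adjusted p 0.00453 and 0.0188).

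Ddn, whose product dendrin lies in dendrites and binds postsynaptic scaffold proteins, was among the brightest genes of this set, at 11.45, 11.28 and 11.35 in wild type. It fell 1.97-fold, to 9.88, 10.48 and 10.28 (adjusted p 0.00453 and 0.0188). Itpka, a dendritic spine kinase that phosphorylates inositol trisphosphate and bundles actin, read 9.20, 8.94 and 9.16 in wild type and 7.48, 8.53 and 8.14 in transgenic pools (1.7-fold, adjusted p 0.00805 and 0.0406). Transgenic pool 1 was the lowest for Itpka, and with all 6 pools the fall was 2.07-fold. Tafa1, a secreted chemokine-like protein of neurons, went from 10.41, 10.31 and 10.42 to 8.94, 9.49 and 9.39 (1.92-fold, adjusted p 0.00453 and 0.0188). Rasd1, a Ras-like protein induced by glucocorticoids, fell 2.01-fold and Rin1, a Ras effector of forebrain neurons, 1.64-fold (adjusted p 0.00963 and 0.0349 for Rasd1, 0.00712 and 0.0323 for Rin1). Of the 15 largest falls, the butyrophilin-like pseudogene Btnl5-ps alone missed the 6-pool call (adjusted p 0.101), and as a pseudogene it may share probes with related genes.

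**Figure D3:**
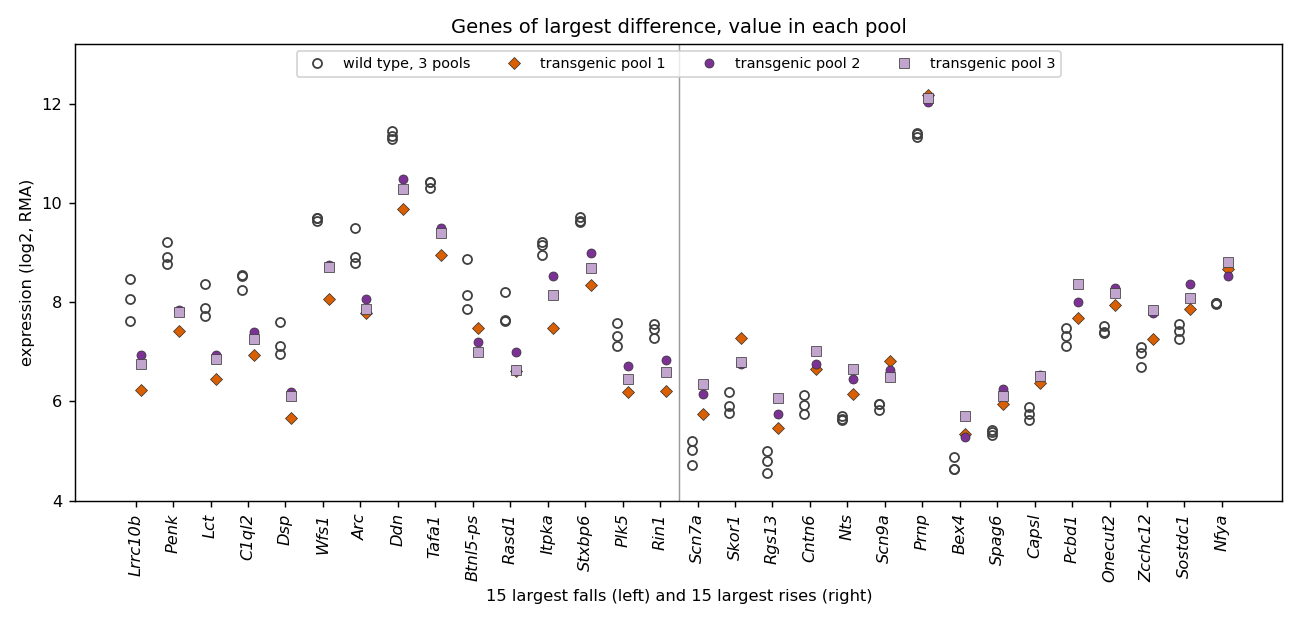
Value in each pool (vertical axis, log2) of the 15 genes with the largest falls and the 15 with the largest rises among genes called without transgenic pool 1 and with no overlap between groups. Open circles are the wild-type pools, filled symbols the transgenic pools. Transgenic pool 1 is the lowest transgenic pool for most of the falls, such as Penk at 7.41.

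Dentate granule neuron markers fell as a group. Of 20 measured, 16 fell and none rose, and the same 16 passed the 6-pool call, beside 11.1% and 0.757% of all genes called lower. Rescaled, 16 were lower and 0 higher. Their median difference was -0.529 with all 6 pools and -0.426 without pool 1, against -0.00498 and 0.0197 over all genes. This list, like the others, was chosen with earlier results of these data known, so its counts are a description. Lists share members, such as Jun with the immediate early genes and Calb1 with the calcium signalling genes, so their counts are not independent. C1ql2, a synaptic organiser secreted by mossy fibre terminals, read 8.55, 8.52 and 8.24 in wild type and 6.94, 7.39 and 7.26 in transgenic pools, and fell 2.15-fold (SE 0.10, adjusted p 0.00453 and 0.0188). The other large falls were those of Lct, the lactase gene, from 8.37, 7.71 and 7.89 to 6.45, 6.92 and 6.84 (2.15-fold, adjusted p 0.00706 and 0.027), and of Dsp, the desmosomal plaque protein desmoplakin, from 7.59, 6.95 and 7.12 to 5.67, 6.20 and 6.11 (2.1-fold, adjusted p 0.00735 and 0.0363). Stxbp6, a regulator of SNARE assembly, went from 9.62, 9.71 and 9.63 to 8.35, 8.99 and 8.68, and the cation channel gene Trpc6 from 8.23, 8.22 and 8.14 to 7.28, 7.75 and 7.54 (adjusted p 0.00552 and 0.0188 for Stxbp6, 0.00735 and 0.0188 for Trpc6). Calb1, the calcium buffer calbindin of mature granule neurons, fell 1.3-fold, from 9.92, 9.96 and 9.96 to 9.47, 9.51 and 9.64 (adjusted p 0.012 and 0.0344).

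Prox1, the transcription factor that defines granule neurons, did not follow the other markers. It read 8.71, 8.36 and 8.43 in wild type and 8.08, 8.49 and 8.55 in transgenic pools, and its difference without pool 1 was 0.022 (SE 0.11, adjusted p 0.881 and 0.448). Only transgenic pool 1 lay below the wild-type range. In these whole-tissue pools, fewer cells of a type and less RNA per cell cannot be told apart, nor can a smaller share of the dentate gyrus in the dissected tissue. The median of the 20 markers was -0.702 in transgenic pool 1, and -0.443 and -0.446 in pools 2 and 3, so the 3 pools moved the same way. Of 17 markers of progenitors and immature neurons 3 rose and 1 fell, beside 17.5% and 11.1% of all genes, with no 6-pool call (rescaled, 2 higher and 1 lower). Dcx, the microtubule protein doublecortin of newborn neurons, rose 1.42-fold, from 6.94, 7.25 and 7.18 to 7.50, 7.59 and 7.67 (adjusted p 0.0118 and 0.0843).

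**Figure D4:**
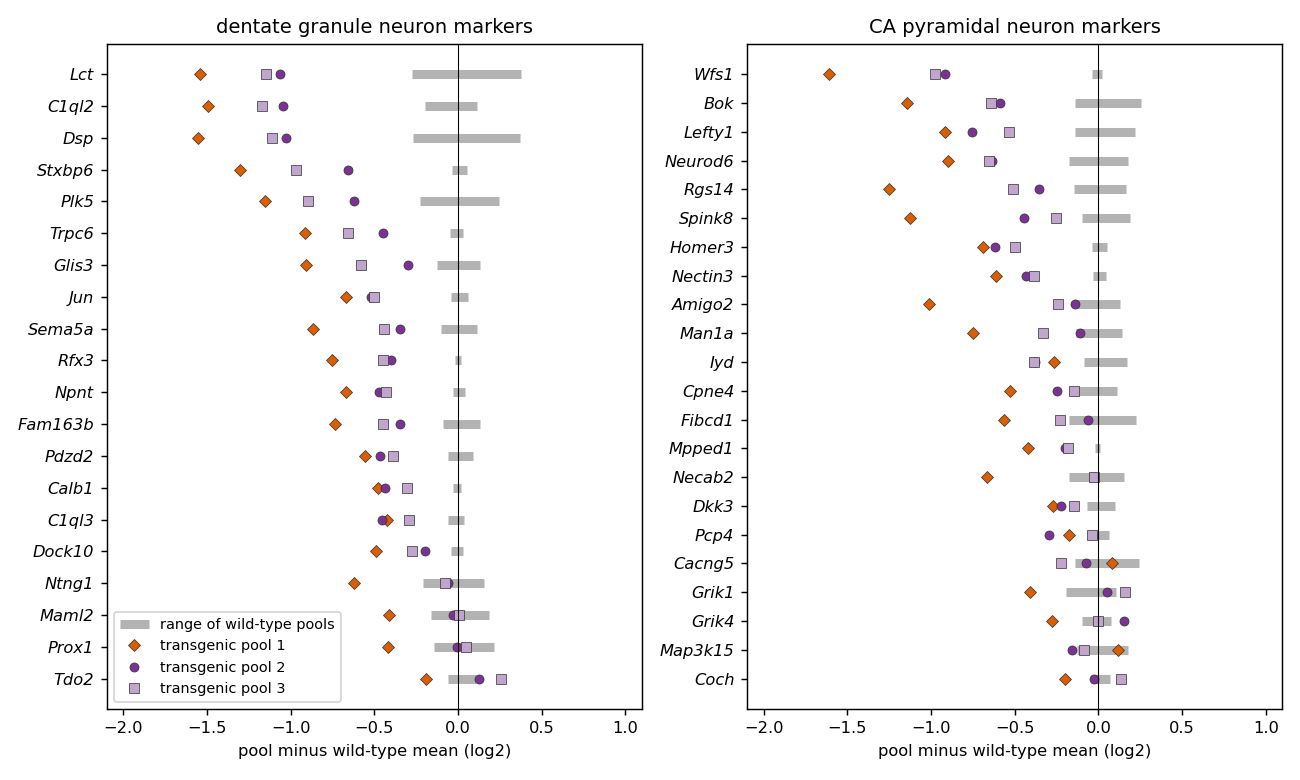
Difference of each transgenic pool from the wild-type mean (horizontal axis, log2) for each measured marker of dentate granule neurons (left) and CA pyramidal neurons (right). Grey bars span the wild-type pools. The 16 dentate markers from Lct to Dock10 fell, while for Ntng1, Maml2 and Prox1 pools 2 and 3 lie within the wild-type range and for Tdo2 above it.

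Of 22 CA pyramidal neuron markers measured, 9 fell and none rose, beside 11.1% of all genes fallen, and 5 of the falls had the 6-pool call, beside 0.757%. The rescaled count was 9 lower and 0 higher. The list median was -0.325 with 6 pools and -0.194 without pool 1. Besides Wfs1, the falls with a 6-pool call were those of Homer3, Neurod6, Nectin3 and Bok. Neurod6, a transcription factor of pyramidal neurons, read 9.44, 9.08 and 9.26 in wild type and 8.36, 8.63 and 8.61 in transgenic pools (1.56-fold, adjusted p 0.00795 and 0.0249). Homer3, a postsynaptic scaffold protein, fell from 7.86, 7.77 and 7.80 to 7.12, 7.19 and 7.31 (1.47-fold, adjusted p 0.00642 and 0.0188). The CA1 marker Fibcd1 showed no fall that passed, at 8.59, 8.19 and 8.31 against 7.80, 8.31 and 8.14 (adjusted p 0.358 and 0.207). Whether dentate and CA markers differ in the share that fell was not tested. The shift in pool 1 was stronger here too, with a list median of -0.589 against -0.234 and -0.235 in pools 2 and 3.

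Of 20 interneuron markers measured, 1 rose (Dlx2) and none fell, beside 17.5% and 11.1% of all genes, and none had a 6-pool call. Gad1, which makes GABA, stood at 10.13, 10.22 and 10.23 in wild type and 10.02, 10.31 and 10.25 in transgenic pools, and Gad2 at 9.46, 9.56 and 9.51 and 9.50, 9.54 and 9.55. Neither passed (adjusted p 0.362 and 0.905 for Gad1 and 0.717 and 0.978 for Gad2), and both groups overlapped. The list median was 0.0407 without pool 1, but -0.389 in pool 1 alone. The rescaled count was 4 lower and 1 higher, so the falls in this list depended on the scaling.

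Of 35 immediate early genes measured, 13 fell, none rose and 22 were not called, beside 11.1% of all genes fallen. A 6-pool call was made for 5 of the falls, Arc, Jun, Ptgs2, Fosl2 and Dusp5, beside 0.757% of all genes. Rescaled, 11 were lower and 0 higher. The median of the list was -0.328 with 6 pools and -0.229 without pool 1. Ptgs2, the inducible cyclooxygenase of excitatory neurons, went from 8.52, 8.53 and 8.39 to 7.50, 7.89 and 7.49 (1.73-fold, adjusted p 0.00665 and 0.0223). Jun, a subunit of the AP-1 transcription factor, had tight wild-type values of 9.60, 9.58 and 9.68 and transgenic values of 8.95, 9.10 and 9.12 (1.42-fold, adjusted p 0.00657 and 0.0188). Fosl2, another AP-1 subunit, went from 8.02, 8.05 and 7.96 to 7.32, 7.55 and 7.56 (adjusted p 0.00735 and 0.0188). Egr2, a zinc finger factor, and Dusp5, a nuclear ERK phosphatase, fell 1.49-fold and 1.45-fold (adjusted p 0.0149 and 0.148 for Egr2, 0.0167 and 0.0471 for Dusp5).

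For Arc and other early genes wild-type pool 1 was the high pool, with Arc at 9.49 against 8.92 and 8.79. Nr4a1, an orphan nuclear receptor, showed the same in wild type, 9.50, 8.80 and 8.80, and its transgenic pools were 8.39, 8.54 and 8.34 (adjusted p 0.0486 and 0.138). Fos and Egr1, the best known early genes, did not pass, and Egr1 was not in the list. Fos read 6.51, 6.06 and 5.88 against 5.72, 5.67 and 6.05, so the groups overlapped (adjusted p 0.229 and 0.394). Egr1 read 9.21, 8.37 and 8.42 against 8.19, 8.10 and 8.10, without overlap (adjusted p 0.0758 and 0.223).

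Genes of the postsynaptic density and of dendrites fell in 14 of 28 cases and rose in 1 (Grip1), beside 11.1% and 17.5% of all genes, and the rescaled count was 13 lower and 0 higher. The 6-pool call was passed by 7 of the falls, namely Ddn, Arc, Itpka, Homer3, Cnksr2, Baiap2 and Kalrn. The list median was -0.279 with 6 pools and -0.246 without pool 1. Cnksr2, a scaffold of Ras signalling, was bright and even, at 11.41, 11.27 and 11.28 in wild type and 10.80, 10.81 and 10.77 in transgenic pools (1.44-fold, adjusted p 0.00665 and 0.0277). Here transgenic pool 1 lay with pools 2 and 3. Baiap2, the actin regulator IRSp53, went from 9.86, 9.83 and 9.84 to 9.37, 9.59 and 9.47 (adjusted p 0.0178 and 0.0452). Dlg4, which encodes the scaffold PSD-95, fell 1.18-fold (adjusted p 0.0379 and 0.0716), without a 6-pool call.

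Falls numbered 7 and rises 2 among 33 presynaptic genes, beside 11.1% and 17.5% of all genes. Their median without pool 1 was -0.0439 (rescaled, 7 lower and 0 higher, beside 6.03% and 6.31% of all genes). Sv2c, a synaptic vesicle glycoprotein, fell from 6.60, 6.61 and 6.74 to 6.20, 6.12 and 6.07, and Syt7, a calcium sensor for release, from 9.45, 9.15 and 9.21 to 8.46, 8.81 and 8.77 (adjusted p 0.00657 and 0.0406 for Sv2c, 0.0127 and 0.0344 for Syt7). Both passed the 6-pool call. The vesicular glutamate transporter Slc17a7 fell 1.19-fold, from 11.46, 11.39 and 11.37 to 11.11, 11.20 and 11.11 (adjusted p 0.0342 and 0.0834).

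Among glutamate receptor genes and their auxiliary subunits, 7 of 27 fell and 2 rose, beside 11.1% and 17.5% of all genes. A 6-pool call was made for 3 of the falls. The rescaled count was 6 lower and 0 higher, so neither rise was called under that scaling. Grin2a, the GluN2A subunit of the NMDA receptor, showed the clearest fall. Its wild-type pools read 10.82, 10.70 and 10.66, its transgenic pools 9.87, 10.11 and 9.85, and the fall was 1.68-fold (SE 0.095, adjusted p 0.00642 and 0.0188). Grm2, a presynaptic metabotropic receptor of granule neurons, went from 8.81, 8.84 and 8.67 to 7.73, 8.40 and 8.12, and Cnih2, which escorts AMPA receptors, from 11.87, 11.66 and 11.72 to 11.20, 11.28 and 11.29 (adjusted p 0.0118 and 0.0349 for Grm2, 0.00918 and 0.0344 for Cnih2). The AMPA receptor subunit Gria1 fell 1.2-fold without a 6-pool call (adjusted p 0.0346 and 0.0694). Cnih3, a relative of Cnih2, rose, from 8.90, 9.10 and 9.21 to 9.24, 9.46 and 9.47 (adjusted p 0.0212 and 0.138), but its rise was lost in the rescaled count.

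Of 13 GABA receptor genes, 2 fell and 2 rose, beside 11.1% and 17.5% of all genes, and in the rescaled count 2 were lower and none higher. Gabra5, the subunit of extrasynaptic receptors of CA pyramidal neurons, fell 1.51-fold, from 11.64, 11.41 and 11.52 to 10.76, 10.89 and 10.97, and passed the 6-pool call (adjusted p 0.00665 and 0.0277). Gabrd, the subunit of tonic inhibition in granule neurons, went from 7.41, 7.19 and 7.18 to 6.80, 6.84 and 6.78 (adjusted p 0.0119 and 0.0662). The rises were of Gabrg1 and Gabrg3, the latter from 8.96, 8.94 and 9.13 to 9.16, 9.25 and 9.34 (adjusted p 0.0358 and 0.21).

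Peptide genes were called in both directions. Of 29 neuropeptide and granin genes, 5 fell and 2 rose, beside 11.1% and 17.5% of all genes. The numbers were the same rescaled, beside 6.03% and 6.31%, and Penk, Chgb and Nts had 6-pool calls. Nts, the neurotensin precursor, rose 1.87-fold, from 5.63, 5.62 and 5.70 to 6.16, 6.46 and 6.65 (SE 0.08, adjusted p 0.00453 and 0.027). All 3 transgenic pools were above the closely spaced wild-type pools, with pool 1 the lowest of them. Chgb, a granin of dense-core vesicles, fell from 10.61, 10.42 and 10.32 to 9.73, 9.90 and 9.87 (1.48-fold, adjusted p 0.0082 and 0.027). Of the 24 peptide receptor genes 5 fell and 2 rose, beside 11.1% and 17.5% of all genes, with the same numbers rescaled. Ntsr1, a receptor for neurotensin, rose 1.56-fold, from 5.78, 6.16 and 6.13 to 6.42, 6.65 and 6.68 (adjusted p 0.00979 and 0.0627), and Sort1, the sorting receptor that also binds neurotensin, fell from 10.99, 10.82 and 10.81 to 10.44, 10.54 and 10.48 (adjusted p 0.016 and 0.0716). Sstr4, a somatostatin receptor of CA1, was the only one of the list with a 6-pool call, at 10.32, 10.24 and 10.26 against 9.33, 9.78 and 9.74 (1.43-fold, adjusted p 0.00657 and 0.0277).

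Of 30 genes in the list of monoamine, acetylcholine and cannabinoid receptors, 5 fell and 3 rose, beside 11.1% and 17.5% of all genes, and all 5 falls had a 6-pool call. The rescaled count was 6 lower and 1 higher, the latter Chrna5. The adenosine receptors of this list were not analysed here, having no probe set with a single symbol. Htr1b, an inhibitory serotonin receptor, was the most even of them, at 7.78, 7.77 and 7.75 in wild type and 6.99, 7.09 and 7.02 in transgenic pools (1.64-fold, SE 0.069, adjusted p 0.00453 and 0.0188). The group difference was several times the spread within either group, and transgenic pool 1 lay beside the others. Htr4, which raises cyclic AMP, went from 8.26, 8.31 and 8.40 to 7.54, 7.81 and 7.63, and Htr2a, which couples to phospholipase C, from 8.66, 8.67 and 8.78 to 7.81, 8.27 and 8.22 (adjusted p 0.00657 and 0.0188 for Htr4, 0.00802 and 0.0188 for Htr2a). Drd5, a dopamine receptor of the D1 class, fell 1.5-fold, from 7.78, 7.70 and 7.65 to 6.80, 7.19 and 7.07 (adjusted p 0.00642 and 0.0188). The muscarinic receptor gene Chrm1 completed the set (adjusted p 0.0169 and 0.0344). The rises were of the nicotinic subunits Chrna5 and Chrnb2 and the cannabinoid receptor Cnr1, whose transgenic pool 1 values lay within or below the wild-type range. Chrna5 read 5.83, 6.50 and 6.67 in the transgenic pools against 5.97, 6.09 and 5.96.

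Of 32 cyclic nucleotide signalling genes, 5 fell and 6 rose, beside 11.1% and 17.5% of all genes, and the 3 with a 6-pool call all fell. In the rescaled count 5 were lower and 1 higher, so most of the rises depended on the scaling. Adcy1, the calmodulin-stimulated adenylyl cyclase, went from 10.51, 10.25 and 10.19 to 9.33, 9.71 and 9.60 (1.59-fold, adjusted p 0.00761 and 0.027), Adcy9 from 9.06, 8.94 and 8.79 to 8.0, 8.60 and 8.42 (adjusted p 0.018 and 0.0491), and Ppp1r1a, a protein phosphatase inhibitor, from 9.15, 9.04 and 9.09 to 8.29, 8.78 and 8.55 (adjusted p 0.013 and 0.0344). Of 22 regulators of G-protein and Ras signalling, 5 fell and 1 rose, beside 11.1% and 17.5% of all genes (rescaled, 7 lower and 1 higher). The Ras exchange factor Rasgrp1 fell from 11.95, 11.80 and 11.87 to 11.31, 11.41 and 11.34 (adjusted p 0.00735 and 0.027), and the Ras-like genes Rasl10a and Rasd2 fell 1.67-fold and 1.41-fold (adjusted p 0.0109 and 0.0344 for Rasl10a, 0.015 and 0.0401 for Rasd2). Rgs13, which shortens G-protein signalling, rose 2.16-fold, from the dim values of 4.57, 4.81 and 5.01 to 5.46, 5.75 and 6.06 (adjusted p 0.00576 and 0.0471).

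Of 45 potassium channel genes 9 fell and 5 rose, beside 11.1% and 17.5% of all genes, with 4 falls in the 6-pool call. The balance depended on the scaling, with 14 lower and 1 higher in the rescaled count. Kcnk4, the two-pore channel TRAAK, was at 7.86, 7.88 and 7.84 in wild type and 6.96, 7.15 and 7.0 in transgenic pools (1.73-fold, SE 0.074, adjusted p 0.00453 and 0.0188), with even values in both groups. Kcnh3, a voltage-gated channel of the forebrain, went from 8.54, 8.49 and 8.40 to 7.37, 8.0 and 7.82 (1.48-fold, adjusted p 0.00689 and 0.027), with transgenic pool 1 the lowest. Kcnip2, which modulates A-type channels, and Kcnj9, a G-protein-gated channel, fell 1.31-fold and 1.26-fold (adjusted p 0.0128 and 0.0339 for Kcnip2, 0.0189 and 0.032 for Kcnj9).

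Calcium channel and calcium signalling genes fell in 19 of 52 cases and rose in 6, beside 11.1% and 17.5% of all genes. The 6-pool call held 6 falls and 1 rise (rescaled, 20 lower and 3 higher). Cacna1h, a T-type calcium channel, fell from 8.50, 8.46 and 8.32 to 7.67, 8.04 and 7.94 (adjusted p 0.0109 and 0.027), while Cacna1g, of the same class, rose from 7.63, 7.67 and 7.62 to 7.97, 8.19 and 8.01 (adjusted p 0.00879 and 0.0804). Camk2n2, an inhibitor of CaM kinase II, rose 1.66-fold, from 8.05, 8.11 and 8.32 to 8.64, 8.82 and 8.96, with a 6-pool call (adjusted p 0.00642 and 0.0277). Prkcb, a protein kinase C isoform, went from 11.37, 11.30 and 11.23 to 10.93, 10.88 and 10.91 (adjusted p 0.0103 and 0.049), and Hpca, the calcium sensor hippocalcin, fell 1.49-fold (adjusted p 0.0108 and 0.16). In Hpca pool 1 was the highest transgenic pool, at 12.50, 12.04 and 12.24 against 12.90, 12.58 and 12.68. Of 16 sodium channel and HCN channel genes 5 rose and 2 fell, beside 17.5% and 11.1% of all genes, and in the rescaled count 2 were higher and 1 lower. Scn3a, a channel of developing neurons, rose from 7.0, 6.87 and 6.99 to 7.24, 7.27 and 7.43, and the leak channel Nalcn from 8.65, 8.93 and 8.84 to 9.09, 9.20 and 9.22 (adjusted p 0.0131 and 0.11 for Scn3a, 0.017 and 0.112 for Nalcn).

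Scn7a, an atypical sodium channel involved in salt sensing, had the largest rise among genes called without pool 1 and not overlapping between groups. It went from 4.73, 5.03 and 5.19 in wild type to 5.74, 6.15 and 6.35 in transgenic pools, 2.41-fold (SE 0.13, adjusted p 0.00453 and 0.0345). Scn9a, its neighbour on chromosome 2 and a channel best known from sensory neurons, rose 1.58-fold, from 5.82, 5.94 and 5.95 to 6.82, 6.63 and 6.48 (adjusted p 0.00576 and 0.0362), and here pool 1 was the highest transgenic pool. Chromosome 2 held 7 of the 61 higher genes of the 6-pool call (11.5%) and 8.72% of the genes tested. Other chromosomes departed from their share as well. Chromosome 18, with the protocadherin beta genes described below, held 9.84% of the higher genes and 2.37% of those tested. Chromosome 8 held 0.0% and 4.81%. Cntn6, a cell adhesion molecule of the contactin family, went from 5.75, 5.93 and 6.14 to 6.66, 6.76 and 7.01 (1.92-fold, adjusted p 0.00642 and 0.027). Onecut2, a homeodomain transcription factor, rose 1.75-fold, from 7.37, 7.52 and 7.39 to 7.95, 8.28 and 8.19 (adjusted p 0.00453 and 0.0188). Nfya, a subunit of the factor NF-Y that binds CCAAT boxes, had tight wild-type values, 7.95, 7.97 and 7.98, and rose to 8.66, 8.53 and 8.80 (1.62-fold, adjusted p 0.00642 and 0.0339).

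Spag6, a central-pair protein of motile cilia, and Capsl, a calcium-binding protein, rose 1.74-fold and 1.7-fold. Spag6 read 5.42, 5.38 and 5.32 in wild type and 5.95, 6.25 and 6.10 in transgenic pools, and Capsl 5.63, 5.74 and 5.88 and 6.38, 6.53 and 6.51 (adjusted p 0.00453 and 0.0188 for Spag6, 0.00533 and 0.0188 for Capsl). Spag6 has a close paralog, and probes may not separate them. Of the 35 ependymal and cilium genes 5 rose and 1 fell, with the same numbers rescaled, beside 17.5% and 11.1% of all genes (6.31% and 6.03% rescaled), and the median was 0.0367 with 6 pools. The ependymal marker Foxj1 did not pass, at 5.73, 5.62 and 5.66 against 5.49, 5.59 and 5.37 (adjusted p 0.113 and 0.42). The list's fall, that of Rfx3, which also marks granule neurons, had a 6-pool call (adjusted p 0.00795 and 0.0188). Of the 15 largest rises, Skor1, Bex4, Pcbd1 and Zcchc12 missed the 6-pool call, with adjusted p of 0.0512 to 0.063. Sostdc1, a secreted BMP antagonist abundant in choroid plexus, rose 1.77-fold and passed it (adjusted p 0.00642 and 0.0396).

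Protocadherin beta genes, a family of clustered neuronal adhesion proteins chosen after its values were seen, were higher together. Of 22 measured, 19 rose and none fell, beside 17.5% and 11.1% of all genes. A 6-pool call was made for 5 of the rises (Pcdhb2, Pcdhb14, Pcdhb16, Pcdhb17 and Pcdhb18), beside 0.306% of all genes. Without pool 1 after quantile normalisation, the rises of Pcdhb4, Pcdhb6, Pcdhb7 and Pcdhb8 lost the call (adjusted p 0.0945, 0.0723, 0.0872 and 0.12). In 18 of the 22 the transgenic values all lay above the wild-type values, as they did in 8.42% of all genes. The median was 0.394 with 6 pools, 0.386 after quantile normalisation and 0.255 in pool 1 alone. Pcdhb16 was the most even, at 6.57, 6.56 and 6.56 in wild type and 7.03, 7.11 and 7.20 in transgenic pools (1.5-fold, adjusted p 0.00533 and 0.0255). Pcdhb2 rose 1.73-fold, from 6.57, 6.36 and 6.52 to 6.77, 7.29 and 7.27 (adjusted p 0.00453 and 0.0485). The genes lie in 1 cluster and are similar in sequence, so that single members are uncertain and the 22 are not independent.

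Of the genes known to be lower in striatal projection neurons of Huntington models 25 were measured. Of these 6 fell and 4 rose, beside 11.1% and 17.5% of all genes, and Penk, Rasd2, Ryr1 and Strip2 had a 6-pool call. The rescaled count was 6 lower and 1 higher, so most of the rises depended on the scaling. Ryr1, a calcium release channel, went from 6.90, 6.84 and 6.71 to 6.29, 6.50 and 6.39, and Strip2 from 8.36, 7.96 and 8.24 to 7.26, 7.61 and 7.67 (adjusted p 0.0159 and 0.0491 for Ryr1, 0.0131 and 0.0349 for Strip2). Rasd2, the striatum-enriched protein Rhes, which binds huntingtin, read 8.43, 8.17 and 8.06 in wild type and 7.28, 7.76 and 7.69 in transgenic pools. Rarb, a retinoic acid receptor of the same list, rose, from 6.50, 6.58 and 6.62 to 6.76, 6.92 and 6.93 (adjusted p 0.0127 and 0.0796). Of 27 neuronal genes under the repressor REST, 9 fell and 4 rose, beside 11.1% and 17.5% of all genes, and in the rescaled count 8 were lower and none higher. Bdnf, the neurotrophin of that list, fell 1.29-fold, from 6.40, 6.32 and 6.24 to 5.82, 6.11 and 5.81 (adjusted p 0.0303 and 0.0992), without a 6-pool call.

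Of the 212 genes of the 6-pool call, 137 were in none of the lists, and the following were picked from them after their values were seen. Smad3, a transcription factor of TGF-beta signalling, fell from 8.93, 8.78 and 8.77 to 7.94, 8.33 and 8.28 (1.43-fold, adjusted p 0.00735 and 0.0188). Enc1, an actin-binding protein of neurons, was bright in wild type at 11.41, 11.23 and 11.17 and stood at 10.69, 10.77 and 10.73 in transgenic pools (1.44-fold, adjusted p 0.0082 and 0.0344). Lynx1, a membrane-anchored modulator of nicotinic receptors, went from 10.26, 10.15 and 10.23 to 9.35, 9.71 and 9.75 (adjusted p 0.00704 and 0.027), and Icam5, a dendritic adhesion protein of the telencephalon, from 9.37, 9.24 and 9.32 to 8.72, 8.96 and 8.95 (adjusted p 0.0125 and 0.0274). Faah, which degrades the endocannabinoid anandamide, fell from 9.10, 9.03 and 9.05 to 8.57, 8.81 and 8.76 (adjusted p 0.0232 and 0.0424).

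Among the higher genes of that call outside the lists, Cirbp, an RNA-binding protein induced by cold, rose from 8.11, 8.16 and 8.21 to 8.73, 8.82 and 8.88 (1.62-fold, adjusted p 0.00453 and 0.0188). Sema3a, a secreted axon guidance factor, went from 5.68, 5.60 and 5.61 to 6.17, 5.98 and 6.20 (adjusted p 0.0106 and 0.0339). Gbe1, the branching enzyme of glycogen synthesis, went from 5.84, 5.79 and 6.03 to 6.27, 6.67 and 6.78 (1.79-fold, adjusted p 0.00453 and 0.049), and Tmsb10, an actin-sequestering peptide, from 8.24, 8.21 and 8.11 to 8.55, 8.80 and 8.79 (adjusted p 0.00533 and 0.0305). Gng4, a G-protein gamma subunit, rose from 8.22, 8.22 and 8.30 to 8.78, 8.86 and 8.82 (adjusted p 0.00533 and 0.0306).

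Promoter sequence was compared as a property the tests had not used. RefSeq windows of the 250 bases upstream of the start were at hand for 15614 of the 19938 genes, 109 of the 151 lower and 45 of the 61 higher genes. The GC box GGGCGG was in 73.4% of the windows of lower genes and 55.6% of those of higher genes, against 46.0% of all windows and 61.6% of those of genes above the median level. The median GC content ran in the same order, 65.2% in lower and 58.8% in higher genes, 56.4% in all and 61.2% above the median level. The cyclic AMP response element TGACGTCA was in 2 of 109 lower genes (1.83%), those of Chgb and Plk2, in none of the 45 higher genes, in 2.12% of all windows and in 2.84% above the median level. The shorter core TGACGT of that element was in 5.5% of lower and 2.22% of higher windows. Among all windows the share was 8.02%, and above the median level 10.8%. The AP-1 motif TGANTCA was in 1 of 109 lower windows (0.917%) and 3 of 45 higher windows (6.67%). It was in 6.11% of all windows and 3.56% of those above the median level. The E-box CAGATG was in 10.1% of lower windows, between the 12.1% of all and the 9.38% above the median level. Its share of higher windows was 15.6%. CCAAT was in 33.0% of lower windows, 24.4% of higher, 35.5% of all and 35.7% above the median level. All motifs were searched on both strands, and a match is a description of the letters alone.

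The upstream 150 bases of 4 genes that fell are shown, 2 with several GC boxes and the 2 with the full cyclic AMP response element (RefSeq, GRCm38.p6). Capitals mark GC boxes, CCAAT boxes and the element TGACGT with its reverse complement. Itpka is at chr2:119742187-119742336 (plus strand), Wfs1 at chr5:36988983-36989132 (minus), Chgb at chr2:132781492-132781641 (plus) and Plk2 at chr13:110394894-110395043 (plus).
Itpka: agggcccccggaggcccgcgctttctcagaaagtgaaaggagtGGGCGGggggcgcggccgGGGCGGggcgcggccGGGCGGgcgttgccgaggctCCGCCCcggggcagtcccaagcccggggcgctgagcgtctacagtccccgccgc
Wfs1: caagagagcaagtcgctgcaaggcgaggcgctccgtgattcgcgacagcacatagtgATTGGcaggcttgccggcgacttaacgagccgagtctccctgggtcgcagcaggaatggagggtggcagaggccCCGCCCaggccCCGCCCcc
Chgb: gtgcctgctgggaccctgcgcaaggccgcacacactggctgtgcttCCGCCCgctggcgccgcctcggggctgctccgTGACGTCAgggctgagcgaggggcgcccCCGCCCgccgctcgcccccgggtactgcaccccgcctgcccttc
Plk2: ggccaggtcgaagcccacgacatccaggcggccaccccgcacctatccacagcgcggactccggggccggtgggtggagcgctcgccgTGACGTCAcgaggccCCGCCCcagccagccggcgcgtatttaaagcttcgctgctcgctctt
The Itpka stretch holds 4 GC boxes, and those of Wfs1 and Chgb 2 each. Plk2, an activity-induced kinase of spines, fell 1.3-fold, from 9.57, 9.46 and 9.56 to 8.94, 9.12 and 9.18 (adjusted p 0.0115 and 0.027).

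Markers of non-neuronal cells differed between transgenic pool 1 and the others, as did all genes of similar level. In level class 3, which holds genes between 6.499 and 8.035, the median of all genes was -0.142 in pool 1 and 0.165 and 0.195 in pools 2 and 3, and in class 4 it was -0.0853, 0.126 and 0.153. Of 22 oligodendrocyte and myelin genes 11 rose and none fell, beside 17.5% and 11.1% of all genes, none with a 6-pool call. The list median was -0.0324 in pool 1 against 0.261 and 0.241 in pools 2 and 3. In the rescaled count 6 of the 22 were higher and none lower. Aspa, an enzyme of oligodendrocytes, rose 1.55-fold, from 7.0, 7.02 and 6.94 to 7.08, 7.68 and 7.56, and Mog, a surface protein of myelin, from 9.23, 9.37 and 9.29 to 9.33, 9.86 and 9.78 (adjusted p 0.00533 and 0.0843 for Aspa, 0.00665 and 0.159 for Mog). For Mog pool 1 sat within the wild-type range. Mbp, the myelin basic protein, did not pass, at 11.01, 11.03 and 10.98 against 10.87, 11.15 and 11.11 (adjusted p 0.205 and 0.951). Of 23 microglial genes 7 rose and 2 fell, and of 21 endothelial and mural genes 7 rose and none fell, beside 17.5% and 11.1% of all genes, again with no 6-pool call. In the rescaled count 1 microglial gene was higher and 1 lower, and 1 endothelial gene was higher, beside 6.31% and 6.03%. The microglial medians of -0.168, 0.202 and 0.215 in pools 1 to 3 were close to those of all genes in level class 3, and the endothelial medians were -0.264, 0.199 and 0.135. The microglial marker Cx3cr1 read 8.31, 8.20 and 8.12 against 8.09, 8.41 and 8.27 and did not pass (adjusted p 0.256 and 0.955).

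Astrocyte markers rose in 3 of 22 cases, beside 17.5% of all genes, and none fell, while in the rescaled count none was called either way. Gfap, the intermediate filament that increases in reactive astrocytes, was level, at 9.01, 9.08 and 9.18 in wild type and 9.02, 9.08 and 9.27 in transgenic pools (adjusted p 0.441 and 0.964). Of 17 genes of reactive astrocytes 1 rose (S100a10) and 2 fell, beside 17.5% and 11.1% of all genes. Rescaled, 0 were higher and 1 lower, beside 6.31% and 6.03%. Aldh1l1, an astrocyte enzyme, rose without a 6-pool call, from 7.08, 7.39 and 7.21 to 7.05, 7.69 and 7.68, pool 1 being lower than every wild-type pool (adjusted p 0.0141 and 0.427).

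Markers of tissue next to the hippocampus were read for the share they might add to a pool. Of 17 choroid plexus markers 6 rose and none fell, beside 17.5% and 11.1% of all genes (rescaled, 4 higher and none lower), and the mean level of the list was 6.629 to 6.867 in wild-type and 6.703 to 7.032 in transgenic pools. Ttr, its most abundant transcript, stood at 12.01, 12.33 and 12.48 against 12.44, 12.68 and 12.61, with overlapping groups (adjusted p 0.0524 and 0.219). Of 13 striatal and extended amygdala genes 4 fell, including Lrrc10b, beside 11.1% of all genes (rescaled, 3 lower, beside 6.03%). The list means were 6.532 to 6.669 in wild type and 6.299 to 6.419 in transgenic pools. Drd2, a defining striatal receptor, read 6.51, 6.64 and 6.37 against 6.27, 6.45 and 6.38 and did not pass (adjusted p 0.426 and 0.406). The counts that follow stand beside 17.5% risen and 11.1% fallen of all genes, or 6.31% higher and 6.03% lower rescaled. Neocortical and subicular genes rose in 4 and fell in 4 of 24 cases (rescaled, 3 and 3). Thalamic genes rose in 2 and fell in 2 of 15 (rescaled, 1 and 3). Meningeal genes rose in 1 and fell in 2 of 16 (rescaled, 0 and 1), and cerebellar genes rose in 1 and fell in 3 of 16 (rescaled, 0 and 1). Of the 14 blood genes listed only 7 were measured, of which 1 rose and 2 fell, with none in the rescaled count. The part that neighbouring tissue had in the falls and rises was not tested.

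**Figure D5:**
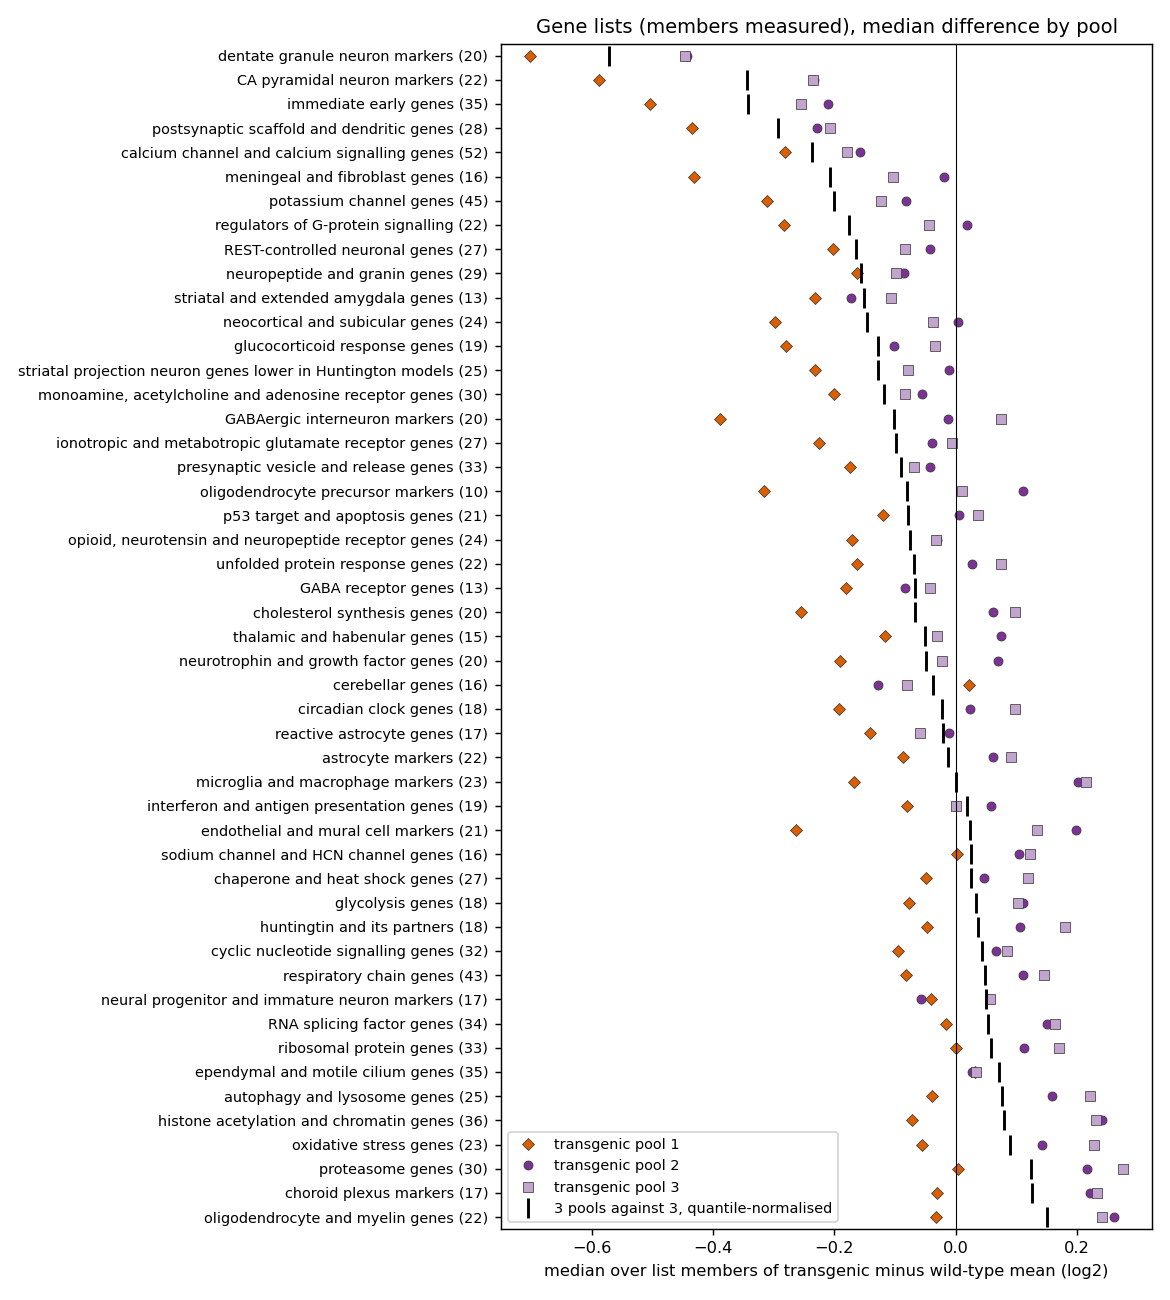
Median over each gene list of the difference from wild type (horizontal axis, log2), shown for each transgenic pool and, as black bars, for 3 pools against 3 after quantile normalisation. Lists with at least 10 measured members are ordered by the latter value, their number of members in brackets. Dentate markers are lowest in every pool, while the oligodendrocyte, microglial, proteasome and chromatin lists are near or below 0 in pool 1 and above 0 in pools 2 and 3.

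Genes of protein turnover and of chromatin were higher by their medians in transgenic pools 2 and 3 but not in pool 1. Of 30 proteasome genes 15 rose and none fell, of 25 autophagy and lysosome genes 7 rose, and of 36 chromatin genes 21 rose, beside 17.5% of all genes. None of these had a 6-pool call, and in the rescaled count only 2 autophagy and lysosome genes, 4 chromatin genes and no proteasome gene were called. The medians of the proteasome and chromatin lists were 0.241 and 0.238 without pool 1, and 0.00405 and -0.0722 in pool 1 alone. Over all genes of level classes 3 and 4, the median in pools 2 and 3 was itself displaced by 0.126 to 0.195. Psma1, a subunit of the proteasome core, rose from 8.85, 8.81 and 8.93 to 9.02, 9.24 and 9.17 (1.26-fold, adjusted p 0.0156 and 0.135), and the autophagy receptor Sqstm1 from 10.86, 11.06 and 11.11 to 11.16, 11.45 and 11.45 (1.36-fold, adjusted p 0.0122 and 0.145). For both, all 3 transgenic pools were above the wild type, as for 12 of the 30 proteasome genes and 8.42% of all genes. Tet1, which oxidises methylcytosine, rose 1.41-fold, from 8.0, 8.12 and 8.28 to 8.41, 8.64 and 8.61 (adjusted p 0.0106 and 0.0788), and the deacetylase Sirt1 rose with pool 1 at 6.79, below its wild-type pools (adjusted p 0.00888 and 0.194).

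Chaperone genes rose in 4 and fell in 1 of 27 cases, beside 17.5% and 11.1% of all genes (rescaled, 1 and 1), and the inducible chaperone Hspa1a was the fall, from 7.51, 7.15 and 7.09 to 6.22, 6.97 and 6.66 (adjusted p 0.044 and 0.108). Genes of the unfolded protein response rose in 3 and fell in 3 of 22 cases, beside the same shares (rescaled, 1 and 2). Among them Atf6, a membrane-bound sensor of that response, fell with a 6-pool call, from 8.92, 9.0 and 8.92 to 8.30, 8.71 and 8.64 (adjusted p 0.0253 and 0.0371). Of 43 respiratory chain genes 6 rose, of 18 glycolysis genes 5, of 33 ribosomal protein genes 5, of 34 splicing factors 9 and of 23 oxidative stress genes 8, with no falls and no 6-pool calls in these lists, beside 17.5% of all genes risen. In the rescaled count the higher genes numbered 1, 2, 2, 1 and 2 in the same order, and 1 glycolysis gene was lower. Txn1, the thioredoxin gene, was among the brightest and most even of them, at 12.26, 12.22 and 12.21 in wild type and 12.47, 12.47 and 12.47 in transgenic pools (1.18-fold, adjusted p 0.0325 and 0.0817). Srsf6, a splicing factor, rose 1.4-fold, from 8.54, 8.69 and 8.63 to 8.85, 9.14 and 9.08 (adjusted p 0.00751 and 0.0596). Of 19 interferon genes 4 rose, beside 17.5% of all genes (rescaled, 3 higher, beside 6.31%). Among them Ifit1 went from 5.39, 5.79 and 5.55 to 5.85, 6.08 and 6.09 (adjusted p 0.015 and 0.0899). Several other lists had small counts or counts that moved with the scaling. For these lists the shares of all genes were 17.5% risen and 11.1% fallen, or 6.31% higher and 6.03% lower rescaled. Glucocorticoid response genes fell in 3 of 19 cases and were lower in 6 in the rescaled count. Clock genes rose in 2 and fell in 2 of 18 cases, against 1 higher and 5 lower rescaled. Cholesterol synthesis genes rose in 2 of 20 cases (rescaled, 1 higher), and neurotrophin genes rose in 2 and fell in 3 of 20 (rescaled, 0 and 2). The p53 targets rose in 4 and fell in 4 of 21 cases (rescaled, 0 and 4), and huntingtin partners rose in 4 and fell in 2 of 18 (rescaled, 0 and 1). None of 10 oligodendrocyte precursor markers was called in either count.

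Some genes set transgenic pool 1 apart from pools 2 and 3 by far more than any list. Trdn, which encodes triadin of the calcium release complex, read 10.76 in pool 1 and 6.13 and 6.24 in pools 2 and 3, with 8.20, 8.79 and 9.45 in wild type. Without pool 1 it was 6.17-fold lower in transgenic hippocampus (adjusted p 0.00453 and 0.649), and pool 1 lay above every wild-type pool. Iqca stood at 8.14 in pool 1 against 4.89 and 5.21, and the kallikrein Klk1b11 at 7.02 against 4.56 and 4.42. The other genes of this kind were Klk1b24, Klk1b9, Olfr1160, Olfr111, Try5, Ifi214 and Ccdc180, several of them members of large families of similar genes. In the opposite direction, Acta2, the smooth muscle actin of vessel walls, read 6.52 in pool 1 against 7.93 and 7.66, and its wild-type pools were 7.38, 7.98 and 7.66. Eif4a3, an RNA helicase of the exon junction complex, read 5.08, 6.05 and 6.46 against 5.48, 5.62 and 5.44, and Plagl1, an imprinted transcription factor, 7.86, 9.0 and 9.0 against 7.59, 8.24 and 8.25. Plagl1 was also low in wild-type pool 1. These genes were chosen for the difference between pools, so their values are a description.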

How the data were processed

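Arrays were Affymetrix Mouse Gene 1.0 ST, and the deposited values are log2 expression, summarised with RMA in the oligo package per the submitters' processing notes, which give no version. No genome build is given in the sources used here. All 18 arrays appeared to have been normalised as 3 sets of 6, since 76 to 150 values were identical across arrays of a set and at most 2 between sets, so only the 6 arrays of this set were compared. Of 35556 probe sets, 21789 had 1 gene symbol, 1621 several, and 12146 were not listed in the platform annotation used here. Current symbols came from RefSeq GRCm38.p6 for 21698 of them, matched on the gene number. Each of the 19938 genes was represented by its brightest probe set on these 6 arrays, which meant a choice for 999 genes.

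Transgenic and wild-type pools were compared with limma 3.58.1 (R 4.3.3; lmFit, eBayes, Benjamini-Hochberg over all genes), with all 6 arrays, without transgenic pool 1, and after quantile normalisation. A trial of the test on simulated data had independent noise for each gene and no shift shared across an array. It therefore does not cover the displacement of transgenic pool 1. The 3 arrays per group limit the precision. A pool number was used only as a name. Members and gene lists were chosen with earlier results of these data known. The genes named in the text were drawn from several groups, not all members of which are named. These were the 15 largest falls and rises among genes called without pool 1 whose groups did not overlap, and up to 6 members per list by smallest p. Further groups were the 10 genes per direction in which transgenic pool 1 differed most from pools 2 and 3, and Prnp, Htt, Xist, 3 Y-linked genes and Ttr. Predicted genes and small RNAs were counted but not named. Outside that rule Chrm1, Cnr1, Dlg4, Egr1, Fos, Grip1, Nr4a1, the protocadherins, the genes in no list and the members shown only in a plot were chosen after their values were seen, as were the defining markers Prox1, Fibcd1, Gad1, Gad2, Gfap, Cx3cr1, Mbp, Foxj1 and Drd2. Alternatives covered scaling, filters on dim genes, the choice of probe set, the variance model, array weights, a block and single pools left out.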

Additional observations from a re-analysis of the deposited data

How the results depend on the processing

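Every gene count below is from limma at an adjusted p under 0.05. With all 6 arrays the count of 0 was also found after median centring, with the dimmest genes left out below the 25th percentile, with all probe sets and with the other choice of probe set; it was 212 after quantile normalisation, 9 among genes above the median level, 73 with a trended and robust variance, 1116 with all 18 arrays in 1 fit and 8753 with array weights. Leaving out single arrays gave 0 to 5698. Without transgenic pool 1 the count of 5698 became 2461 after quantile normalisation and was 3878 to 6437 under the other settings, and 0 to 5644 with a further array left out. The share of calls that were higher moved from 61.2% to 72.5% with median centring and 51.1% with quantile normalisation, and was 85.7% among genes above the median level. For the 6 quantile-normalised arrays, alternatives chosen after seeing the data gave 471 (trended and robust variance), 2973 (array weights) and 644 (genes above the median level) in place of 212, and 0 to 2461 with single arrays left out.

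Same-numbered pools of the 2 groups deviated together only weakly, with correlations of 0.05, 0.03 and 0.10 over genes, although each was the highest for its pools; the labels do not say that a number is shared by more than name. With the replicate number as a block, the counts were 0 with 6 arrays, 6369 without transgenic pool 1 and 0 with 6 quantile-normalised arrays.

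Of 259 named genes called without transgenic pool 1, all that had a value kept their direction under each planned setting that left pool 1 out, 94 lost the call after quantile normalisation, 83 without wild-type pool 2, 217 without transgenic pool 2 and 259 without transgenic pool 3. With pool 1 included and no rescaling, 254 lost the call and 5 turned positive: Iqca to 0.256, Klk1b11 to 0.154, Olfr1160 to 0.267, Klk1b24 to 0.0858 and Ifi214 to 0.239. Pool 1 was the highest pool in each of these. The cause of these shifts was not tested.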
